A study of Mus musculus with 12 samples.

Results

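The cytosolic ribosomal protein genes were followed through chemical long-term potentiation (LTP) in acute mouse hippocampal slices. They were taken as the protein-coding genes whose symbol begins with Rpl or Rps and continues as a ribosomal protein name, without the ribosomal S6 kinases and without copies carrying a pseudogene suffix. The rule found 86 genes among 41091 gene IDs. Of these, 46 encode core proteins of the large (60S) subunit and 31 core proteins of the small (40S) subunit, 8 are paralogs of a core gene (Rpl3l, Rpl7l1, Rpl10l, Rpl22l1, Rpl36al, Rpl39l, Rps27l and Rps27rt), and 1, Rps19bp1, encodes a protein that binds RPS19 and is no structural component.

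RNA-seq counts came from hippocampal slices of wild-type male C57BL/6 mice aged 2 to 3 months, with the dentate gyrus cut away. LTP slices received 50 µM forskolin, which activates adenylyl cyclase, for 5 min and then forskolin with 30 mM KCl and 10 mM calcium up to 10 min; the vehicle of the control slices was 0.2% DMSO over the same 10 min. Collection followed after 1 hr or 3 hr, giving 4 groups (1 hr control, 1 hr LTP, 3 hr control, 3 hr LTP) of 3 libraries. Within a time point, each animal supplied both an LTP and a control library, and the time points were taken to be different animals, so animal and time cannot be told apart between 1 hr and 3 hr. Counts of each time point were also deposited in a separate table. Whether the time points were prepared or sequenced apart is not given in the sources used here, and such a difference could not be told apart from time either.

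Library totals lay between 37118382 and 50815001 counts, and 3 counts corresponded to 0.059 to 0.0808 CPM (counts scaled to a library size of 1e+06). The tests were made without 1 hr control replicate 2, which the study set aside in its clustering; it is given in the values per library and in the ratios of animal 2. The slices hold many cell types, and in such bulk RNA fewer cells of a type and less RNA per cell cannot be told apart. The 4 CA pyramidal neuron markers summed to between 2460 and 3806 CPM, and 3 markers of dentate granule cells were still present at 111 to 214 CPM. The calls between LTP and control slices included no cell type marker examined; their directions are given beside each result.

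Each ribosome carries a single copy of nearly every core protein, apart from the stalk proteins P1 and P2, and cells make the parts in matched amounts. The mRNAs of ribosomal proteins usually begin with a 5′ terminal oligopyrimidine (TOP) tract, a cytidine followed by a run of pyrimidines. Through this tract mTORC1 and the binding protein LARP1 set how strongly the mRNAs are translated, and LARP1 also stabilises them. In hippocampal neurons these mRNAs are found in dendrites and axons as well as in the soma, and late LTP is known to need protein synthesis.

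As TOP tracts are known from these genes, the sequences around their annotated starts were read from RefSeq (GRCm38.p6), which held a promoter entry for 66 of the 86. In the 75 bases from 25 before to 50 after an annotated start, 50 of the 66 (75.8%) held a run of at least 8 pyrimidines beginning with C, against 24.3% of all 27025 genes with an entry. The letters CTTTCC, sought on the sense strand in the same 75 bases, were in 20 of the 66 (30.3%) and in 4.09% of all genes. Over the whole entry of 300 bases and on either strand, CTTTCC was in 54.5% of them and 29.3% of all genes. The following stretches of 30 bases, 5′ to 3′ on the coding strand, belong to genes on which the results below turn, with the longest such run in the window in capitals and, for a gene with several entries, the entry with the longest run.
Rpl12 (chr2:32961732-32961761, plus strand): ggaggaggcaacggtgcaaCTTTCTTCggt
Rps10 (chr17:27635226-27635255, minus strand): cgcgcacgCCCCTTCCTTTCCagcctccgc
Rpl13 (chr8:123102324-123102353, plus strand): cgtgacgtcaCTTCCCTTTCgcctgatttt
Rpl27 (chr11:101442220-101442249, plus strand): cggaaccggaacgCTCTgttcctgtctgct
Rpl22l1 (chr3:28805500-28805529, plus strand): gcaagcccgttCTCTTCCCacggctgcagc
Rpl35 (chr2:39005115-39005144, minus strand): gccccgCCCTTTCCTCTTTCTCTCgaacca
Rps24 (chr14:24490698-24490727, plus strand): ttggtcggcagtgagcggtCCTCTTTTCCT
Rps6 (chr4:86857349-86857378, minus strand): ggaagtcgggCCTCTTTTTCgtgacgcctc
Of these 8 genes, Rpl27 had the shortest run, 4 bases, and Rpl35 the longest, 18 bases. The runs of Rpl12 and Rps24 begin 39 bases after the annotated start, so they are not at the 5′ end of the annotated transcript, and several annotated starts lie inside the gene as GENCODE gives it, by 3553 bases in Rps24, 1425 in Rps10, 493 in Rpl35, 153 in Rpl12, 72 in Rpl22l1 and 45 in Rps6. For Rpl27 the same offset was -53, as its annotated start lies before the GENCODE gene. The window of Rpl27 therefore ended before the GENCODE start, whose bases were not read. Which bases begin the transcripts in these slices was not measured, so a run describes only the letters of this window.

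The 86 genes together held between 0.995% and 1.28% of each library's counts, and 83 of them passed the filter on low counts. Per kb of exonic sequence, the highest mean level over the 12 libraries was that of Rplp1 (chr9:61913284-61914542), which encodes the stalk protein P1, at 596 CPM per kb. It was followed by Rps3a1 (269), Rps15 (261), Rps29 (236) and Rpl4 (219 CPM per kb), the last a large subunit protein that lines the exit tunnel for the nascent chain. Rplp1 ranged from 269 to 340 CPM over the 12 libraries. Exonic length counts every base in any annotated exon of a gene (374 to 6270 bases in the 86), so this order depends on the annotation. By CPM without length the highest mean was that of Rpl4, at 440 CPM. The order also pools the time points: Rps29 had a mean of 127 CPM in the 1 hr controls and 210 CPM in the 3 hr controls. At the other end of the tested genes were Rpl24 (0.788), Rps27rt (0.844) and Rps19bp1 (9.65 CPM per kb).

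Rpl24, a core large subunit gene, had only 14 to 58 counts per library in these tables, where the next lowest core gene, Rpl27, had a mean of 37.2 CPM. It shares 47% of its exonic bases with the gene model Gm28037 on the same strand, which was at 0 CPM in every library. Its value may depend in part on how reads shared by both models were counted. The cause of its low counts was not tested. The 3 genes that did not pass the filter were Rpl3l, a paralog known from muscle, with 2 to 13 counts, Rpl39l with 0 to 9 counts, and Rpl10l, a paralog known from testis, with 0 counts in all 12 libraries, at most 0.0808 CPM by a limit of 3 counts. Intervals and limits of this kind cover counting error only. These 3 paralogs enter no test.

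Summed over the 86 genes, the level was 11798, 12228 and 12135 CPM in 1 hr control replicates 1, 2 and 3 and 11462, 11623 and 11703 CPM in the 1 hr LTP replicates. It was 12858, 12835 and 11893 CPM in the 3 hr controls and 11321, 12007 and 10171 CPM in the 3 hr LTP replicates. The LTP library of an animal had 97.2%, 95.0% and 96.4% of its own control's sum at 1 hr, and 88.1%, 93.5% and 85.5% at 3 hr. The LTP sum was therefore below the control of the same animal in all 6 pairs, although the 3 hr groups overlap. The large subunit genes summed to 1.61 to 1.64 times the small subunit genes in the 6 libraries at 1 hr and to 1.496 to 1.515 times in the 6 libraries at 3 hr, with no overlap between the time points, while LTP and control libraries overlapped within each.

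**Figure D1:**
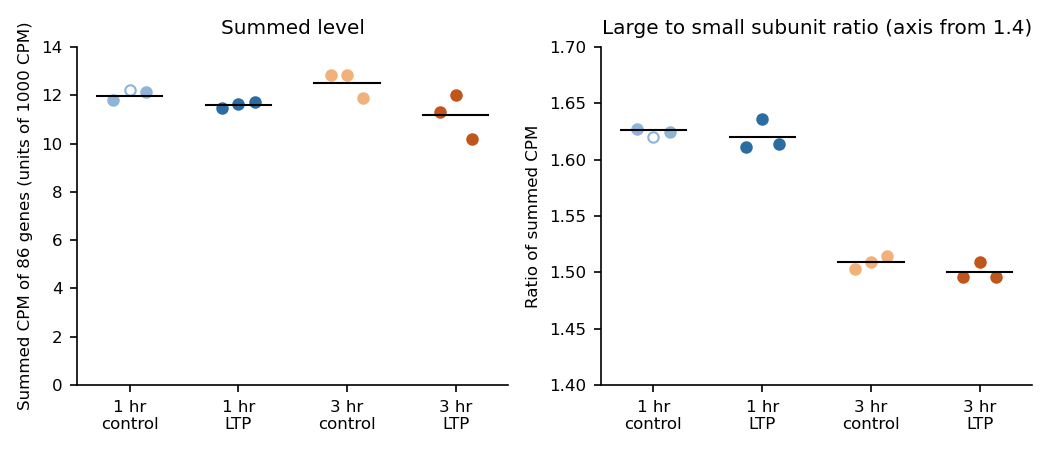
Left, summed CPM of the 86 ribosomal protein genes in each library, in units of 1000 CPM; right, the ratio of the summed CPM of large to small subunit genes on an axis that starts at 1.4. Points are libraries, lines are group means, and the open point is 1 hr control replicate 2, left out of the mean; the ratio lies at 1.61 to 1.64 at 1 hr and 1.496 to 1.515 at 3 hr.

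To ask whether LTP altered the mRNAs of the ribosome at 1 hr, LTP and control slices were compared with edgeR's quasi-likelihood test. A gene was called at a Benjamini-Hochberg adjusted p under 0.1, over all genes tested, and a fold change over 1.2. Of the 83 genes, 0 were called higher or lower, where 0.778% of all genes tested were called higher and 0.0113% lower. By DESeq2 the count was 0 as well, and 3 of the 83 had an unadjusted p under 0.05, against 6.71% of all genes. Log2 fold changes were above 0 in 25 and below 0 in 58, with a median of -0.04 against -0.001 over all genes tested. The LTP libraries were all below the controls in 22 of the 83 and all above in 0, against 12.4% and 10.3% of all genes. Of the cell type markers at 1 hr, none of them called, 5 of 5 microglial (median -0.08), 3 of 3 endothelial (-0.24), 2 of 2 mural (-0.09), 2 of 2 choroid plexus (-0.26) and 2 of 2 meningeal fibroblast markers (-1.07) lay below 0. Above 0 were 4 of 4 oligodendrocyte (0.22) and 3 of 3 interneuron markers (0.20), and those of the other types lay on both sides. Their part in the values of the ribosomal protein genes was not tested.

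At 1 hr the smallest p-values belonged to Rps23, Rpl22l1 and Rpl6. Rps23, a protein of the decoding centre, was at 134 and 141 CPM in 1 hr control replicates 1 and 3 and at 125, 110 and 121 CPM in the LTP replicates. Its groups did not overlap, with a log2 fold change of -0.20 ± 0.07 (SE) and an adjusted p of 0.536. Rpl6, a large subunit protein, was at 194 and 215 CPM in the controls and at 177, 184 and 181 CPM after LTP (-0.16 ± 0.07, adjusted p = 0.667). Rpl22l1 went the other way, from 22.3 and 29.9 CPM to 29.4, 37.4 and 31.3 CPM, with overlapping groups (0.34 ± 0.13, adjusted p = 0.573). It was called at 0.33 only when genes were filtered at 1 count in all (adjusted p = 0.0422).

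At 3 hr after LTP, nearly every ribosomal protein mRNA was measured slightly below its control. The log2 fold change was below 0 in 81 of 83 genes (45 of 46 large subunit, 31 of 31 small subunit and 4 of 5 paralogs, with Rps19bp1) and its median was -0.15, against -0.002 over all genes tested. The values lay close together, with quartiles of -0.20 and -0.11, against -0.12 and 0.16 over all genes. None reached the call: 0 of 83 were called higher and 0 lower, where 5.07% of all genes were called higher and 1.53% lower. The unadjusted p was under 0.05 in 32 of the 83, against 20.2% of all genes, and DESeq2 called 1 lower, against 1.86% of all genes. All LTP libraries lay below all controls in 33 of the 83 and above them in 0, against 14.7% and 12.4% of all genes.

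The adjusted p was under 0.1 in 11 of the 83 genes, all lower, where 2.14% of all genes were lower and 5.56% higher at that threshold, and each missed the call by the fold minimum (a log2 value of 0.263). Among them were Rpl6, Rpl11, Rpl12, Rpl13, Rpl18, Rpl27, Rpl27a, Rps10, Rps21 and Rps29. The log2 fold changes of the 11 lay between -0.26 and -0.20. Rpl12 (chr2:32961559-32965345), part of the base of the ribosomal stalk where elongation factors bind, was at 160, 166 and 156 CPM in the 3 hr controls and at 139, 132 and 132 CPM after LTP. Every LTP library was below every control, and the change was -0.24 ± 0.05 (SE, adjusted p = 0.0522). In animals 1, 2 and 3 the log2 ratio of Rpl12 was -0.20, -0.33 and -0.25.

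Rps10 (chr17:27630418-27636669), a small subunit protein at the head of the 40S near the mRNA entrance, had the next smallest p. It went from 97.7, 100.15 and 94.7 CPM to 85.3, 76.4 and 79.2 CPM, with no overlap (-0.26 ± 0.06, adjusted p = 0.0576); 28.7% of its exonic bases are shared with other gene models. Rpl13 (chr8:123102350-123105244), a large subunit protein, was at 179, 191 and 182 CPM in the controls and at 156, 156 and 155 CPM after LTP. The 3 LTP libraries of Rpl13 were nearly equal and all lower (-0.22 ± 0.05, adjusted p = 0.0591). Rpl27 went from 50.7 ± 1.5 to 41.7 ± 2.9 CPM (mean ± SD, n = 3 each), a change of -0.26 ± 0.07 (adjusted p = 0.0818). The window read for Rpl27 held no long pyrimidine run, but it did not reach the GENCODE start of the gene.

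**Figure D2:**
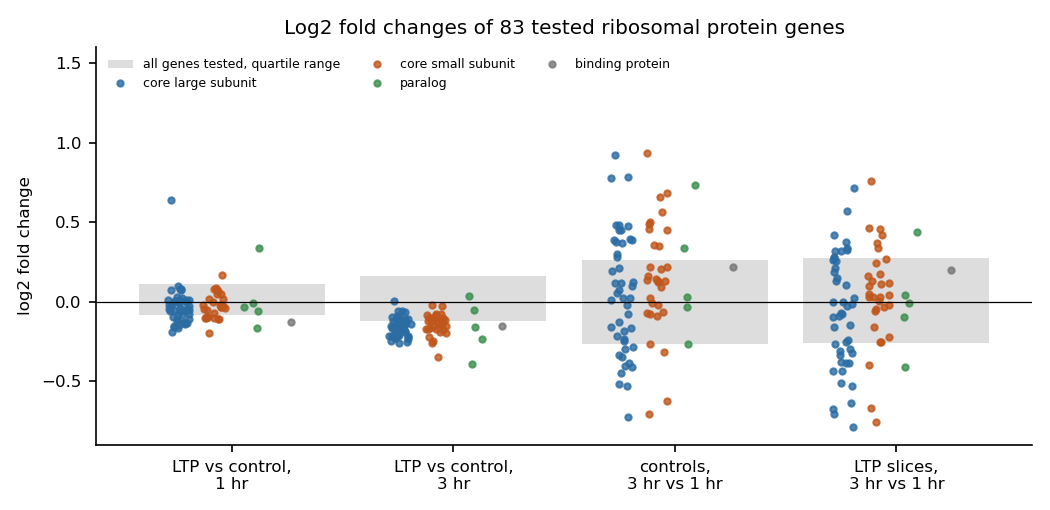
Log2 fold changes of the 83 tested ribosomal protein genes in 4 comparisons; each point is a gene, coloured by class, and grey bands are the quartile range of all genes tested. In LTP against control at 3 hr, 81 of 83 points are below 0, while both comparisons of time points spread to either side.

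The lower level at 3 hr differed in evenness between animals. In animals 1 and 3, 83 of 83 genes were lower in the LTP library, with medians of -0.18 and -0.23 and SDs over genes of 0.0779 and 0.0632. In animal 2, 62 were lower and 21 higher, with a median of -0.09 and an SD of 0.18. Over all genes the median ratio lay between -0.03 and -0.02 in the 3 animals and the SD between 0.335 and 0.397. All 62 genes lower in animal 2 were lower in all 3 animals, and 0 were higher in all 3, against 27.2% and 20.7% of all genes. Without 3 hr LTP replicate 3 the median of the 83 genes was -0.09, and 3 genes were called lower, Rps16 and Rpl29 among them, against 2.77% of all genes. Without 3 hr LTP replicate 2 the median was -0.20, and 4 others were called lower (Rpl27, Rpl22, Rpl36a and Rpl36al), against 2.89% of all genes.

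At 1 hr the medians of the animals were -0.05, -0.12 and -0.06, with 54, 54 and 59 of 83 genes lower. The 25 genes lower in all 3 animals and the 3 higher in all 3 stand against 14.7% and 12.8% of all genes. Animal 2, whose control is the library the study set aside, had an SD of 0.325 over the ribosomal protein genes, against 0.157 and 0.108 in animals 1 and 3.

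**Figure D3:**
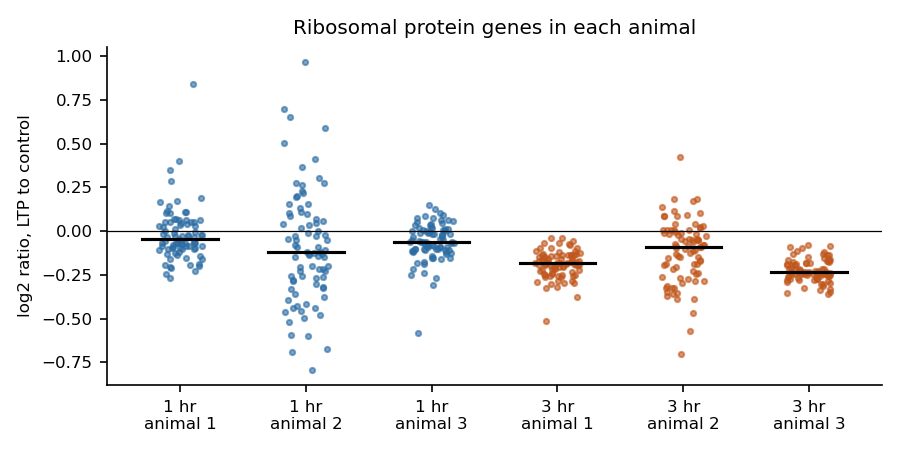
Log2 ratio of LTP to control within each animal for the 83 tested genes, as points, with the median as a line; the pseudocount was 0.1 CPM. In animals 1 and 3 at 3 hr every point is below 0, and in animal 2 at both time points the points spread more widely.

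With the animal as a block (the paired fit at 3 hr), 1 gene was called, Rps16, a small subunit protein whose tail reaches the P site, which is named here after its values were seen. It was at 70.8, 76.5 and 75.1 CPM in the 3 hr controls and at 56.7, 47.0 and 68.3 CPM after LTP. The replicate block gave -0.37 (adjusted p = 0.0695), and the unblocked fit -0.35 ± 0.12 (adjusted p = 0.152). Offsets for GC content and exonic length gave 6 genes called lower at 3 hr (Rplp1, Rpl27, Rpl36, Rpl38, Rps21 and Rps29), where 2.94% of all genes were called lower. Their adjusted p-values lay between 0.0132 and 0.0882.

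The shortest coding genes took a smaller share of the counts after LTP. Those with under 1000 exonic bases, without these 86, held 0.447% to 0.460% of the counts in the 3 hr controls and 0.399% to 0.418% in the 3 hr LTP libraries, with no overlap. At 1 hr the range was 0.451% to 0.455% in controls and 0.423% to 0.442% in LTP libraries. The ribosomal protein genes had a median of 1736.5 exonic bases against 3539 in all coding genes of the table, although among them length and the 3 hr log2 fold change had a Spearman correlation of 0.04 over 83 genes. Most of the 86 genes are therefore longer than this class. The part of mRNA length in the lower level at 3 hr was not tested beyond a fit with offsets for GC content and length, in which 6 of the 83 were called lower, against 2.94% of all genes.

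Markers of some cell types also lay to one side of 0 at 3 hr after LTP, with none called. Below 0 were 5 of 5 microglial (median -0.09), 4 of 4 astrocyte (-0.10), 2 of 2 mural (-0.06) and 2 of 2 meningeal fibroblast markers (-0.61), and above 0 were 4 of 4 CA pyramidal neuron markers (0.10) and the 1 tested choroid plexus marker (0.18). Markers of interneurons, dentate granule cells, oligodendrocytes, endothelial cells and erythrocytes lay on both sides. Their part in the lower level of the ribosomal protein genes was not tested.

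Whether the LTP effect differed between 3 hr and 1 hr was tested as an interaction over 11 libraries, without a fold minimum. Of the 83 genes 0 were called, where 0.0269% of all genes were called higher and 0.0323% lower, and DESeq2 likewise called 0. The difference was below 0 in 75 genes, with a median of -0.09 against 0.005 over all genes, and 7 genes had an unadjusted p under 0.05, against 6.59% of all genes. Rps29, a small subunit protein, was at 122 and 133 CPM in the 1 hr controls and 132, 128 and 139 CPM in the 1 hr LTP slices, with overlap. At 3 hr it was at 214, 215 and 203 CPM in the controls and 184, 188 and 171 CPM in the LTP slices, without overlap. Its interaction was -0.26 ± 0.09 (SE, adjusted p = 0.536), and that of Rpl18, a large subunit protein, was -0.22 ± 0.09 (adjusted p = 0.677).

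Between the time points, ribosomal protein genes differed in both directions, at shares of falls in the controls and of rises in the LTP slices near those of all genes. Between 3 hr and 1 hr controls, 26 of the 83 genes were higher and 15 lower, where 16.1% of all genes were called higher and 16.8% lower. The median was 0.12, against -0.02 over all genes, and the quartiles were -0.16 and 0.37, against -0.27 and 0.26 over all genes. Groups did not overlap in 42 genes that were higher and 21 that were lower, against 32.5% and 28.1% of all genes. Among the small subunit genes 10 of 31 were higher and 4 lower, and among the large subunit genes 15 of 46 were higher and 11 lower.

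Rps14 (chr18:60747098-60778546), a small subunit protein whose loss is known from the 5q- syndrome, had the largest rise. It was at 81.8 and 86.5 CPM in 1 hr control replicates 1 and 3 and at 166, 169 and 162 CPM in the 3 hr controls, a log2 difference of 0.94 ± 0.10 (SE, adjusted p = 6.9e-05). 1 hr control replicate 2, outside the fit, lay between them at 115 CPM. Rpl13 rose by 0.79 ± 0.07 (adjusted p = 2.37e-05) and Rpl27 by 0.78 ± 0.10 (adjusted p = 0.000129). Rpl24 had a value of 0.92 ± 0.38 at its 0.511 and 1.01 CPM, and its call was lost when 1 hr control replicate 1, 3 hr control replicate 1 or 3 hr control replicate 2 was left out.

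The largest fall was that of Rpl35 (chr2:39001580-39005624), a protein at the exit of the nascent chain, from 121 and 122 CPM to 73.1, 81.5 and 72.6 CPM (-0.72 ± 0.09, adjusted p = 0.000165). 66.2% of its exonic bases overlap genes on the other strand, among them Arpc5l, which ranged from 53.9 to 84.4 CPM (the strand setting of the counting is not given). Rps24 (chr14:24487125-24496959), a small subunit protein mutated in some Diamond-Blackfan anaemia, shares no bases with another gene model. It fell from 381 and 394 CPM to 253, 252 and 230 CPM (-0.70 ± 0.08, adjusted p = 7.06e-05), with 1 hr control replicate 2 at 330 CPM. Rps6 (chr4:86854660-86857412), the substrate of the S6 kinases below mTORC1, fell from 172 and 169 CPM to 115, 119 and 107 CPM (-0.63 ± 0.08, adjusted p = 0.000114). Rpl23 and Rpl17, both large subunit proteins, fell by 0.53 and 0.52 on the log2 scale (adjusted p = 0.000872 and 0.00205).

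In LTP slices, which share no library with the controls but come from the same animals, 18 of the 83 genes were higher and 20 lower at 3 hr than at 1 hr, where 18.6% of all genes were called higher and 17.3% lower. With offsets for GC content and exonic length the split was 20 higher and 15 lower, against 13% and 13.3% of all genes. The median was -0.001, the quartiles were -0.25 and 0.23, against -0.26 and 0.27 over all genes, and groups did not overlap in 22 higher and 20 lower genes, against 24% and 20.6% of all genes. Of the 83 genes, 18 were called higher in both controls and LTP slices, 14 were called lower in both, and 0 were called in opposite directions, against 11.6%, 11.7% and 0.0753% of all genes. Genes at large were thus also rarely called in opposite directions. Higher in the controls alone were 8 genes and lower in the controls alone 1, against 4.47% and 4.99% of all genes, while 6 were lower in the LTP slices alone, against 5.58%, and 36 were called in neither. The difference between these calls is the interaction above, in which 0 genes were called.

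The ends of the list were alike in the LTP slices. Rps14 was at 85.4, 84.7 and 92.3 CPM at 1 hr and at 139, 179 and 134 CPM at 3 hr (0.76 ± 0.09, adjusted p = 6.27e-05). Rpl27 (0.72 ± 0.09), Rpl13 (0.57 ± 0.06), Rps13 (0.47 ± 0.07) and Rps19 (0.46 ± 0.06) also rose, with adjusted p-values between 3.68e-05 and 0.000382. Rps24 was at 363, 400 and 370 CPM at 1 hr and 237, 242 and 205 CPM at 3 hr (-0.76 ± 0.07, adjusted p = 1.42e-05). Rpl35 (-0.79 ± 0.08), Rpl17 (-0.71 ± 0.09), Rpl23 (-0.67 ± 0.08) and Rps6 (-0.67 ± 0.07) fell as well, with adjusted p-values between 2.96e-05 and 0.000112.

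**Figure D4:**
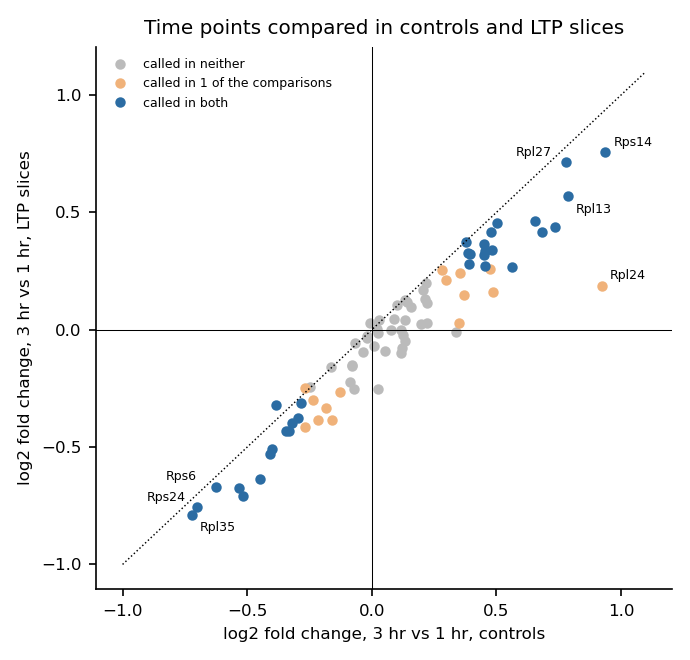
Log2 fold change of 3 hr against 1 hr in controls (horizontal) and in LTP slices (vertical) for the 83 tested genes, coloured by where they were called; the dotted line marks equal values. The 18 genes called higher in both lie at the upper right and the 14 called lower in both at the lower left.

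**Figure D5:**
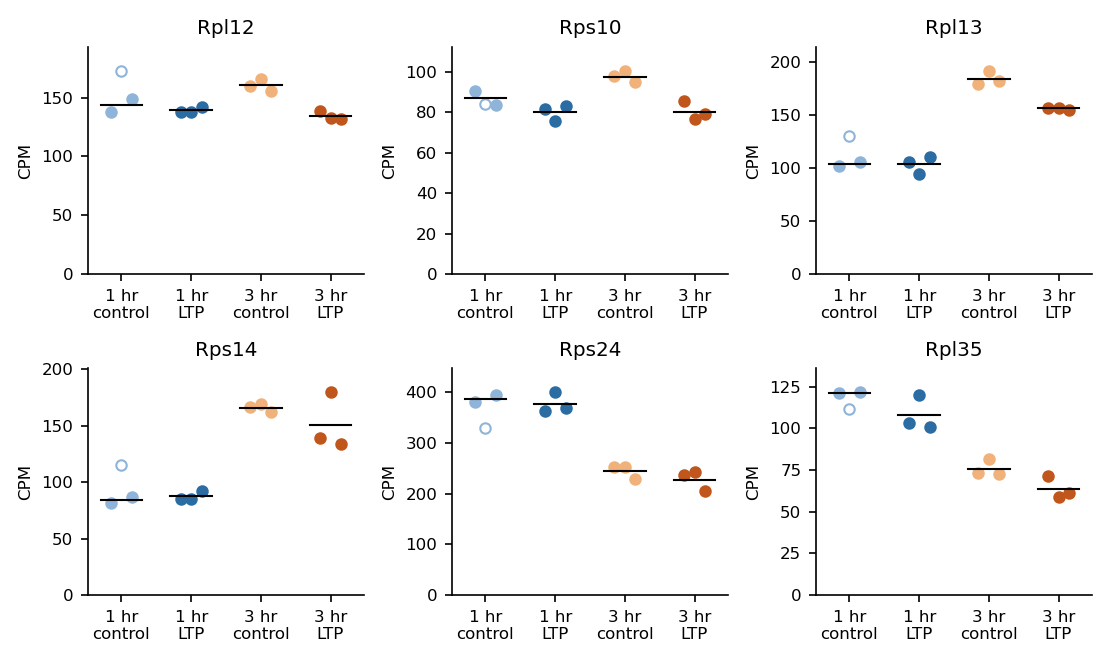
CPM of 6 ribosomal protein genes in each of the 12 libraries; lines are group means and the open point is 1 hr control replicate 2, left out of the mean. Rpl12, Rps10 and Rpl13 are lower in every 3 hr LTP library than in every 3 hr control, Rps14 goes from a mean of 84.2 to 166 CPM between 1 hr and 3 hr controls, and Rps24 and Rpl35 are lower at 3 hr in both controls and LTP slices.

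The mean Pearson correlation of a gene's log2 CPM with the other ribosomal protein genes, over the 12 libraries, was lowest for Rps24 (-0.04), Rpl35 (-0.02) and Rpl23a (-0.02) and highest for Rpl15 (0.48). The libraries differ by time point, where these 3 genes were lower at 3 hr and 51 of 83 were above 0 in the controls. The correlations include that difference, and how much of them it makes up was not tested. Of the 83 genes 30 host a small nucleolar RNA in an intron. Their median at 3 hr after LTP was -0.15, as was that of the 53 without. Between the controls 8 hosts were called higher and 7 lower, and 18 higher and 8 lower among the 53, where 16.1% of all genes were called higher and 16.8% lower. Across the 83 genes the log2 fold change after LTP had a Spearman correlation with GC content of -0.33 at 1 hr and -0.26 at 3 hr. Between the controls it had a correlation of -0.32 with the mean CPM, so that abundant genes tended to be lower at 3 hr; genes are not independent replicates.

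Some cell type markers also differed between the time points. The 5 microglial markers summed to 191 to 196 CPM in the 1 hr controls used and 126 to 142 CPM in the 3 hr controls, and 4 of 5 were called lower, also in the LTP slices. Those of oligodendrocytes, 4 genes, went from 4209 and 5138 CPM to between 5796 and 7174 CPM, and 2 were called higher in the controls and in the LTP slices. Called lower were 2 of 3 endothelial markers in the controls and 0 in the LTP slices, where 1 was called higher, and 1 of 2 mural markers in each comparison. Of the CA pyramidal neuron and astrocyte markers 1 each was called lower in each comparison, of 3 interneuron markers 1 was called lower in each and 1 higher in the controls, and of 2 erythrocyte markers 1 was called lower in the LTP slices. Their part in the differences between time points was not tested.

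Of the paralogs, Rpl22l1 (chr3:28805436-28807424) was called between the controls, at 22.3 and 29.9 CPM at 1 hr and 52.4, 44.2 and 37.7 CPM at 3 hr (0.74 ± 0.21, adjusted p = 0.018), a call that was lost without 1 hr control replicate 1 (0.58). Its core partner Rpl22 was at 97.8 and 102 CPM and at 111.1, 109.8 and 99.5 CPM, with overlap (0.05 ± 0.09, adjusted p = 0.677). In LTP slices Rpl22l1 rose by 0.44 ± 0.18 (adjusted p = 0.0791). At 3 hr after LTP it was at 43.9, 59.3 and 32.1 CPM with a log2 fold change of 0.03 ± 0.20 (adjusted p = 0.949), which turned to -0.21 without 3 hr LTP replicate 2.

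Rpl36al, an intronless relative of Rpl36a, was at 32.7, 32.8 and 31.3 CPM in the 3 hr controls and 25.1, 29.6 and 26.4 CPM after LTP, without overlap (-0.23 ± 0.08, adjusted p = 0.138), and Rpl36a had -0.14 ± 0.13 (adjusted p = 0.597). Rps27l, known as a target of p53, fell between time points in the LTP slices, from 12.4, 12.9 and 11.5 CPM to 9.43, 10.9 and 7.78 CPM (-0.41 ± 0.11, adjusted p = 0.011). Between controls it had -0.27 ± 0.12 (adjusted p = 0.114). At 3 hr after LTP it had -0.16 ± 0.13 (adjusted p = 0.518) and its partner Rps27 -0.03 ± 0.12 (adjusted p = 0.921). Rpl7l1, a nucleolar relative of Rpl7, stayed between 37.1 and 44.0 CPM in all libraries, and Rps27rt between 0.187 and 0.501 CPM, which was 8 to 23 counts. Rps19bp1 was at 11.6, 11.9 and 12.3 CPM in the 3 hr controls and 10.6, 10.2 and 11.001 CPM after LTP, without overlap (-0.15 ± 0.08, adjusted p = 0.317).

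Genes that work with the ribosome were listed beside its proteins. Of 76 tested genes of the mitochondrial ribosome, which is separate and is made from nuclear and mitochondrial genes, 71 were below 0 at 3 hr after LTP with a median of -0.15, and 5 were called lower (Mrps26, Mrps34, Mrpl22, Mrpl9 and Mrpl54). Over all genes tested, 8846 of 17508 were below 0 and 1.53% were called lower. Mrps26 had -0.32 ± 0.07 (adjusted p = 0.0359). At 1 hr 70 of 76 were below 0, with a median of -0.09 and 0 called, 7 of them at an unadjusted p under 0.05. Among 21 mRNAs of other proteins that carry a TOP tract 0 were called at 3 hr, 19 were below 0, the median was -0.13 and 6 had an unadjusted p under 0.05.

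Few genes of translation control and of ribosome assembly were called at 3 hr after LTP, each list at a share below the 5.07% of all genes called higher. Of 65 translation factor genes 1 was called, Eif4g3, which encodes a scaffold of the cap-binding complex (0.39 ± 0.10, adjusted p = 0.0785), while 47 of the 65 were below 0 with a median of -0.09. Of 67 ribosome biogenesis genes 2 were called, both higher: Taf1a, a subunit of the RNA polymerase I selectivity factor (0.46 ± 0.09, adjusted p = 0.0346), and Rrp1b (0.42 ± 0.12, adjusted p = 0.0842), while 48 of the 67 were below 0 with a median of -0.07. Of 25 genes of the mTOR pathway and of TOP regulation 1 was called, Rptor, the mTORC1 subunit Raptor (0.35 ± 0.08, adjusted p = 0.0583), with a list median of 0.08.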

How the data were processed

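The authors deposited raw counts per gene, in a table for each time point. The study's methods state that stranded rRNA-depleted total RNA was aligned with STAR to mm10 and counted with Bioconductor packages; strand use, the treatment of multiply aligned reads and the annotation release are not given in the sources used here, so counts of overlapping genes and of genes with near-identical pseudogenes are uncertain. Symbols, types, lengths and positions came from GENCODE release M21, which matched 40217 of 41091 IDs. No coding symbol of these families ends in "-ps" alone, so the rule was read as "-ps" with a number, which left out 6 coding copies.

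Counts were tested with edgeR 4.0.16 in R 4.3.3 (filterByExpr, TMM, quasi-likelihood F test, Benjamini-Hochberg adjustment over all genes), with 5 libraries at 1 hr, 6 at 3 hr and 11 in the model of the 4 groups. Calls used the study's thresholds, 0.1 for the adjusted p and 1.2 for the fold change; the interaction had no fold minimum. The code was tested on simulated data. CPM is TMM-scaled; group means leave out 1 hr control replicate 2; 0.1 CPM was added before log2 ratios were formed within an animal.

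Genes to name were the 5 largest called changes in each direction and comparison, the 3 smallest p-values of the LTP comparisons and the interaction, the highest and lowest levels, the paralogs with their partners, and up to a few called genes of other lists; some that the rule selects are not reported here. Members and lists were chosen with earlier results of these data known. The labels pair the LTP and control library of an animal; the deviations of paired libraries from their group means correlated at -0.002, -0.17 and 0.08 at 1 hr and 0.06, -0.01 and 0.25 at 3 hr, across genes. P-values measure the spread between these animals. Alternatives were DESeq2 1.42.0, other scalings, other filters (at least 1 count in all, or 10 in every library), the replicate block, offsets for GC content and length (splines with 5 degrees of freedom), all libraries, no fold minimum, and leaving out each library.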

Additional observations from a re-analysis of the deposited data

Results flagged for a closer look

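Rpl35a, which encodes a large subunit protein, was higher in the LTP library of all 3 animals at 1 hr and lower in all 3 at 3 hr. The log2 ratios were 0.17, 0.07 and 0.02 at 1 hr, with a median of 0.067, and -0.18, -0.17 and -0.17 at 3 hr, with a median of -0.174. The interaction had a log2 value of -0.22 ± 0.11 (SE) and an adjusted p of 0.779 (edgeR, 11 libraries), so the difference did not pass the test. It was the single gene of the 83 with this pattern, whose share among all genes was not counted. Of all genes tested, 12.8% were higher in all 3 animals at 1 hr and 27.2% were lower in all 3 at 3 hr. The 1 hr ratio of animal 2, 0.07, uses the control library that the study set aside. With 3 libraries in each group, no search for single samples far from the others was made.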

How the results depend on the processing

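Calls of ribosomal protein genes at 3 hr after LTP depended on the setting: the main count of 0 became, with the share of all genes called lower in parentheses, 11 without a fold minimum (2.14%), 1 with DESeq2 (1.86%), 2 with total counts in place of TMM (1.7%), 5 with no filter beyond 1 count (1.21%), 1 with the replicate block (2.43%), 6 with offsets for GC content and length (2.94%), 8 with offsets and replicate block (3.48%), and 0 to 4 when each library was left out (0.101% to 2.89%), being 4 with LTP replicate 2 of the 3 hr group omitted (2.89%), 3 with its replicate 3 omitted (2.77%) and otherwise 0. All these calls were lower, and the median stayed between -0.196 and -0.088. At 1 hr, no filter beyond 1 count gave 1 call (Rpl22l1, higher, as were 1.23% of all genes) and offsets with the replicate block 1 (Rpl35, lower, -0.298, as were 0.344%). The median of the interaction ran from -0.18 to -0.065 when each library was left out, and that between LTP slices from -0.049 to 0.083; the highest value was without 3 hr LTP replicate 3. Counts between time points stayed within 35 to 47 (controls) and 32 to 51 (LTP slices).

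Among uncalled values, signs turned for Rpl22l1 at 3 hr after LTP (-0.001 with offsets and replicate block, -0.207 to 0.215 when each library was left out), for Rpl7 (-0.195 to 0.058) and Rps27 (-0.17 to 0.089) when each library was left out, and, between controls, for Rpl36al (0.006 with total counts, 0.048 with offsets, -0.02 to 0.026 when each library was left out), Rps27l (0.151 with offsets) and Rps27rt (-0.008 to 0.942 when each library was left out). The cause was not tested. The replicate block changed no other call of a gene named here. No alternative moved the median of all genes by over 0.0394. Rpl24, Rps27rt and the 3 untested paralogs had few counts, which limits what their values show.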

Other observations

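The pseudogenes named after ribosomal protein genes, 250 in the tables and mostly at a few counts, took another course. Their summed level was 68.5 to 140 CPM per library. At 3 hr after LTP 51 of 75 tested were above 0, with a median of 0.19, and at 1 hr 73 of 91, with a median of 0.28. Between the controls 34 of 98 were called lower and 5 higher at 3 hr, with a median of -0.57, where 16.8% of all genes were called lower and 16.1% higher. Pseudogene counts depend on how reads that match several copies were assigned, which is not given in the sources used here.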
